A study of Homo sapiens with 5 samples.

Results

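The M band, titin and the proteins bound to the thick filament were followed through 9 genes in H1 cells, an established human embryonic stem cell line of wild-type genotype, at day 30 of differentiation towards heart muscle. The genes are TTN, MYOM1, MYOM2, MYOM3, OBSL1, MYBPC3, TRIM55, TRIM63 and CMYA5. They were chosen by name, and all 9 were found among the 27139 genes listed in both deposited tables. In the YAPi group (3 libraries), cells received a YAP inhibitor together with Activin, with a labelled treatment time of 24 h. In the GiWi group (2 libraries), they received a GSK3 inhibitor and an inhibitor of Wnt/β-catenin signalling, with a labelled time of 48 h, so agents and time differ together. The labels name no separate cultures behind the libraries of a group, so the spread that a p-value is measured against may be technical.

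In the sarcomere, the contractile unit of striated muscle, myosin thick filaments are cross-linked at their midpoint by the M band. Myomesins, encoded by MYOM1, MYOM2 and MYOM3, bridge neighbouring thick filaments there. Titin, encoded by TTN, runs as a single giant molecule from the Z disc to the M band and acts as a molecular spring, and MYBPC3 encodes the cardiac myosin-binding protein C of the thick filament. TRIM55 and TRIM63 encode muscle RING finger ubiquitin ligases that bind titin near the M band. OBSL1 encodes a cytoskeletal adaptor that binds titin and myomesin and, outside muscle, belongs to the 3M complex with CUL7 and CCDC8. CMYA5 encodes myospryn, a large muscle scaffold.

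Of the 9 genes, MYOM3 rose and MYOM2, TRIM55 and OBSL1 fell in YAPi, where a gene counts as changed if its p from edgeR (quasi-likelihood, Benjamini-Hochberg over all 17634 tested genes) lies under 0.05. Of all tested genes, 57.1% passed that test, 30.2% higher and 26.9% lower, so 4 of 9 is no more than the background share. The same 4 had groups that did not overlap in scaled counts, 1 higher and 3 lower, as did 75.8% of all tested genes, 38.7% higher and 37.1% lower. Without YAPi replicate 3, 5 of 9 passed, against 74.9% of all genes tested in that fit. The median log2 fold change of the members was -0.25, against 0.01 for all tested genes. Levels below are CPM (counts scaled to the library total after TMM correction), means are given ± SD (n = 3 for YAPi and n = 2 for GiWi), and a log2 fold change is YAPi over GiWi ± SE. The libraries held 48825574, 44614628 and 43661243 exon counts in YAPi and 48904372 and 48309866 in GiWi.

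YAPi replicate 3 stands apart from replicates 1 and 2 of its group. The 14 cardiomyocyte markers summed to 2442 CPM there, against 5328 and 5424 CPM in YAPi replicates 1 and 2 and 5988 and 5799 CPM in GiWi. In replicate 3, 8 of the 9 members lay below both other YAPi libraries, at a median log2 difference of -1.30 from their mean, where the median of all tested genes was 0.00. In bulk RNA, fewer cells of a type and less RNA per cell cannot be told apart. The fold changes of the members are therefore also given without that library, or the members as ratios inside each library. P-values without YAPi replicate 3 rest, within YAPi, on replicates 1 and 2 alone, which lay close together and may be technical repeats.

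**Figure D1:**
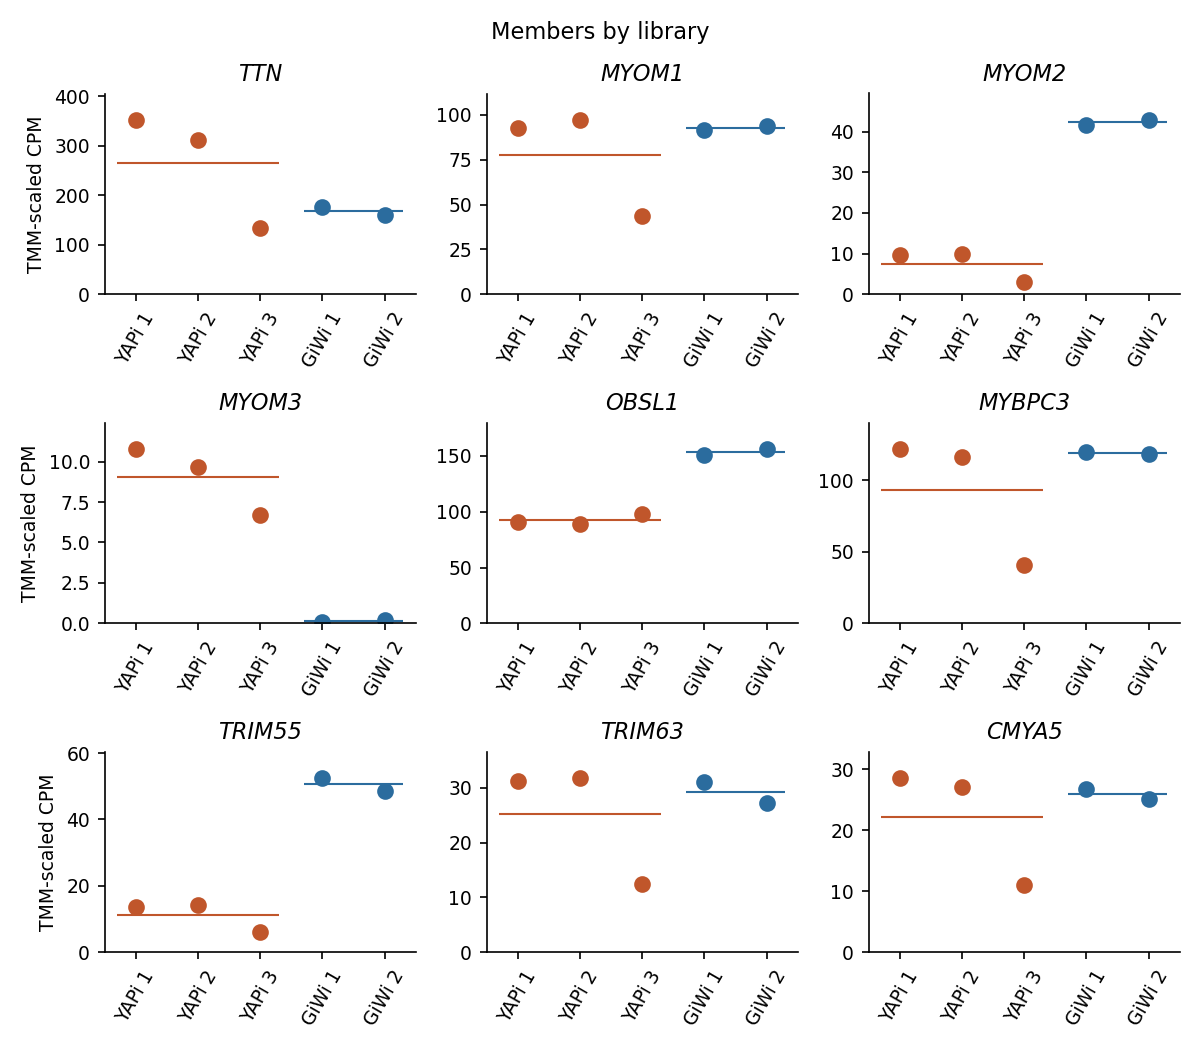
TMM-scaled CPM (vertical axes, each starting at 0) of the 9 genes in the 3 YAPi libraries (orange) and the 2 GiWi libraries (blue); points are libraries and lines are group means. MYOM2, TRIM55 and OBSL1 are below both GiWi libraries and MYOM3 above them in every YAPi library, and 8 genes are lowest within YAPi in replicate 3.

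MYOM3, a myomesin known from skeletal muscle, rose in YAPi and was close to 0 in GiWi. It measured 10.8, 9.68 and 6.68 CPM in YAPi replicates 1, 2 and 3, against 0.0746 and 0.193 CPM in GiWi replicates 1 and 2. Every YAPi library lay far above both GiWi libraries, where the gene had 3.5 and 10.5 counts. The log2 fold change was 6.06 ± 0.43 (edgeR adjusted p = 0.000243). With so few GiWi counts its size depended on the GiWi library, at 5.53 without GiWi replicate 1 and 6.87 without GiWi replicate 2, and it was 6.24 ± 0.20 without YAPi replicate 3. In hg19, MYOM3 spans chromosome 1, 24382531 to 24438665, on the minus strand.

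MYOM2, which encodes the myomesin of adult fast and cardiac muscle also known as M-protein, fell. It measured 9.67, 9.92 and 2.97 CPM in YAPi, against 41.6 and 42.9 CPM in GiWi. The groups did not overlap, and replicate 3 was the lowest YAPi library. The log2 fold change was -2.49 ± 0.45 (edgeR adjusted p = 0.00601), and -2.11 ± 0.06 without YAPi replicate 3 (edgeR adjusted p = 3.85e-17). MYOM2 lies at chromosome 8, 1993158 to 2093380, in hg19.

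MYOM1, which encodes the myomesin of all striated muscle, did not pass the test. It measured 92.8, 97.3 and 43.5 CPM in YAPi, against 91.4 and 93.9 CPM in GiWi. YAPi replicates 1 and 2 lay within a few CPM of the GiWi libraries and replicate 3 well below them. The log2 fold change was -0.25 ± 0.34 (edgeR adjusted p = 0.555), and 0.04 ± 0.05 without YAPi replicate 3 (edgeR adjusted p = 0.473). MYOM1 spans chromosome 18, 3066805 to 3220106, in hg19.

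The shares of the 3 myomesin genes did not overlap between the groups, replicate 3 included. Shares were computed from the authors' FPKM (fragments per kilobase of transcript, scaled to the reads of the library), which correct for length. MYOM3 made up 9.48, 8.22 and 12.5% of the summed FPKM of the 3 myomesin genes in YAPi, against 0.0466 and 0.141% in GiWi. MYOM2 made up 9.84, 9.73 and 6.43% in YAPi, against 34.6 and 34.8% in GiWi. MYOM1 made up 80.7, 82.1 and 81.1% in YAPi, against 65.4 and 65.0% in GiWi. Replicate 3 had the highest MYOM3 share and the lowest MYOM2 share of the YAPi libraries, while its MYOM1 share lay between those of the others. MYOM3 averaged 10.1 ± 2.20% in YAPi and 0.0939 ± 0.0669% in GiWi, a difference of 9.97 points. MYOM2 averaged 8.67 ± 1.94% in YAPi and 34.7 ± 0.173% in GiWi. Each share had an exact two-sided permutation p = 0.1, the smallest that the 10 splits of 5 libraries allow. The summed FPKM of the 3 genes was 15.7, 16.1 and 7.30 in YAPi, against 21.5 and 21.3 in GiWi, lower in every YAPi library.

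**Figure D2:**
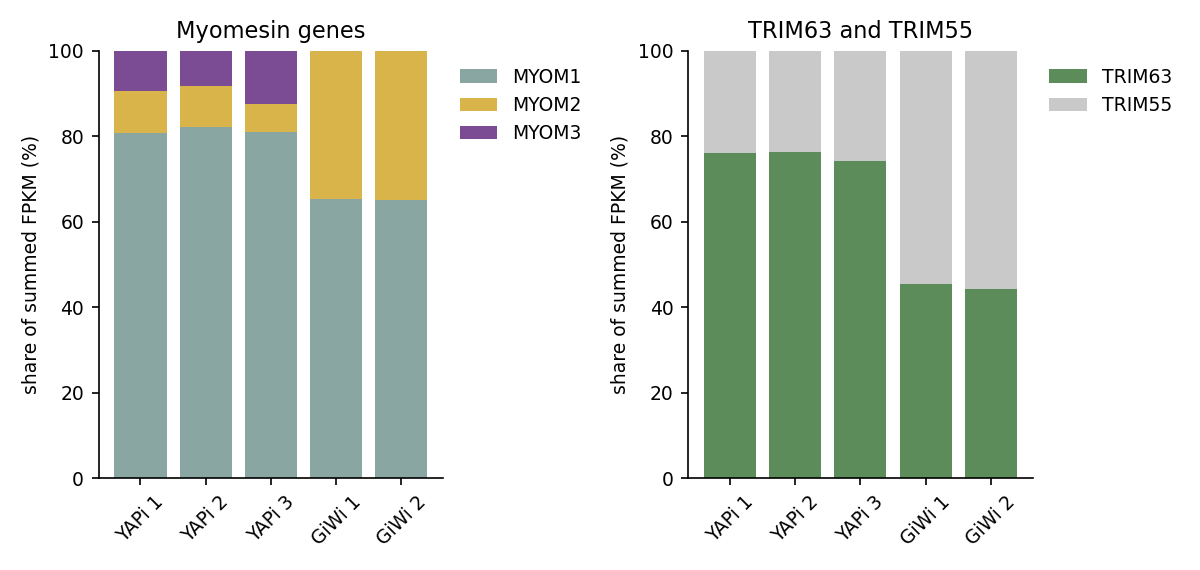
Left, MYOM1, MYOM2 and MYOM3 as shares of their summed FPKM in each library; right, TRIM63 and TRIM55 as shares of theirs (vertical axes in percent). MYOM3 fills 8.22 to 12.5% of the bar in YAPi libraries and is hardly visible in GiWi libraries, and TRIM63 fills 74.2 to 76.2% in YAPi and 44.2 to 45.5% in GiWi.

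The bases before the annotated starts of MYOM3, which rose, and MYOM1, which did not pass the test, are shown because these paralogs parted between the protocols. They are the 250 bases upstream of each start in the RefSeq promoter table (GRCh38.p14, both genes on the minus strand). The windows are chr1:24112136-24112385 for MYOM3 and chr18:3219969-3220218 for MYOM1. Capitals mark matches, on either strand, to the E-box (CANNTG) bound by basic helix-loop-helix factors, the M-CAT element (CATTCC) bound by TEAD factors, the GATA motif (GATAA), the MEF2 consensus and the CArG box of SRF.
MYOM3: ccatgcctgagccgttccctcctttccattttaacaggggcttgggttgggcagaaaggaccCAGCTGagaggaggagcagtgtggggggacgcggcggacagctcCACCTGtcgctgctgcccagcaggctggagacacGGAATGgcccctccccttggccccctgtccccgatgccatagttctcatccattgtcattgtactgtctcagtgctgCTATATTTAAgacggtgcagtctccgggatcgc
MYOM1: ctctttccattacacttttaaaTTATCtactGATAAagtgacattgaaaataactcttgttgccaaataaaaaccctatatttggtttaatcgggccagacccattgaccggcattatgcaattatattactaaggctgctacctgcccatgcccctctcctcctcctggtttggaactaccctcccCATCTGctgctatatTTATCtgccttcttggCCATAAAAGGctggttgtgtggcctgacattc
The MYOM3 window held 2 E-boxes, 1 M-CAT element at bases -110 to -105 and 1 MEF2 match at -33 to -24. The MYOM1 window held 1 E-box, 3 GATA motifs and 1 CArG box at -32 to -23. No match overlapped another. Promoter windows were at hand for 7 members, but not for MYOM2 and TRIM55, which both fell. An E-box was found in 7 of 7, against 61.8% of all 35116 promoters of the same length. The MEF2 consensus was found in 3 of 7 (MYOM3, TTN and MYBPC3), against 2.80% of all. M-CAT was found in 2 of 7 (MYOM3 and TRIM63), against 11.9% of all, and GATA in 2 of 7, against 20.4%. The CArG box was found in MYOM1 alone, against 1.16% of all. A match describes letters in a window and is not a measured binding site.

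The deposited tables list different transcripts for MYOM1, and their difference measures 1 exon. The counts are listed for NM_003803 and the FPKM for NM_019856, over the same span. In GENCODE release 29 the pair differs internally by exon 18 of 38, of 288 bases, at chr18:3129232-3129519 on the minus strand of GRCh38. It lengthens the encoded protein to 1685 residues, against 1589 without it, and is known as the exon of the embryonic heart form, EH-myomesin. Its sequence, from GENCODE's transcript, is shown because the count below is of reads in it.
MYOM1 exon: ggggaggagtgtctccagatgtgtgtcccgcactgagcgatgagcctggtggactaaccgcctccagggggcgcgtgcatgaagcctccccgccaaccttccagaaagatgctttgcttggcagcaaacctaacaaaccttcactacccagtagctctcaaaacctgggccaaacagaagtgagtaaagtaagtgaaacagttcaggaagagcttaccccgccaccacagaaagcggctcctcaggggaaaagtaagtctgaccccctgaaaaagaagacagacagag
An FPKM value times its transcript length and its library total gives back a count. The MYOM1 count minus that value left 224, 189 and 79.5 counts for the exon in YAPi, against 213 and 248 in GiWi. Per base, the exon was covered at 104, 92.0 and 91.1% of the level of the other exons in YAPi, against 87.4 and 104% in GiWi. The groups overlapped, with means of 95.7 ± 7.20% in YAPi and 95.5 ± 11.4% in GiWi (exact two-sided permutation p = 0.9). The exon was covered at nearly the mean level of the other exons in both groups. It took 4.52 to 5.13% of MYOM1 counts in YAPi and 4.35 to 5.11% in GiWi. The exact 95% binomial interval of the shallowest library, YAPi replicate 3, was 3.57 to 5.57% and covers counting error only.

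**Figure D3:**
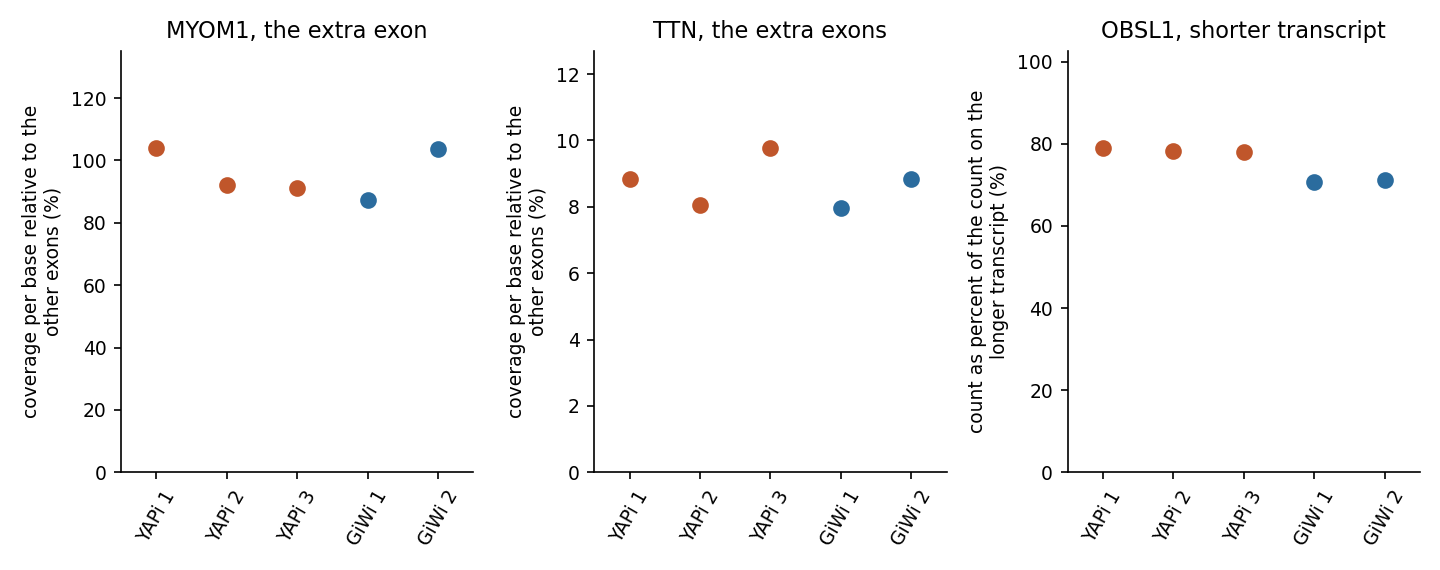
Left and middle, coverage per base of the MYOM1 exon and of the 172 TTN exons that the FPKM transcript lacks, relative to the exons it has; right, the OBSL1 count on the shorter transcript as a percentage of the count on the longer. Points are libraries, YAPi orange and GiWi blue. The groups overlap for MYOM1 and TTN, and for OBSL1 the YAPi libraries at 78.1 to 79.0% lie above the GiWi libraries at 70.8 and 71.1%.

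TTN was higher in YAPi replicates 1 and 2 than in GiWi but lower in replicate 3, and did not pass the test. It measured 352, 311 and 134 CPM in YAPi, against 176 and 159.6 CPM in GiWi. The groups overlapped because replicate 3 lay below both GiWi libraries. Its log2 fold change was 0.66 ± 0.40 (edgeR adjusted p = 0.205). Without YAPi replicate 3 it was 0.99 ± 0.06 and passed (edgeR adjusted p = 2.32e-12). It also passed in limma-voom with sample weights, at 0.93 (adjusted p = 0.000459). The only other alternative in which TTN passed was a replicate block, which leaves replicate 3 out of the contrast. In the remaining 12 alternatives it did not pass. TTN spans chromosome 2, 179390717 to 179672150, in hg19, on the minus strand. TTN-AS1, listed on the opposite strand inside it, had at most 2.35% of the TTN count in YAPi and 2.27% in GiWi. Whether the counting used strand was not stated in the labels or headers.

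The TTN transcripts of the tables are NM_001267550 for the counts, which holds nearly all titin exons, and NM_003319 for the FPKM, the N2B form of the stiffer cardiac titin. The longer one has 172 further exons with 27195 bases, numbers 11 to 218 of 363. They received 469.5, 343 and 169 counts in YAPi, against 241 and 234.5 in GiWi. Per base they were covered at 8.83, 8.06 and 9.77% of the level of the other exons in YAPi, against 7.96 and 8.85% in GiWi. The means of 8.88 ± 0.860% in YAPi and 8.40 ± 0.625% in GiWi differed by less than the spread between replicates (exact two-sided permutation p = 0.5). The groups overlapped. Titin holds repeated exons, and the treatment of reads that match several of them was not stated either.

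OBSL1 fell, and it was the member that did not follow the drop of the other genes in YAPi replicate 3. It measured 91.1, 88.9 and 98.3 CPM in YAPi, against 151 and 156 CPM in GiWi. The YAPi libraries lay close together and below both GiWi libraries. The log2 fold change was -0.73 ± 0.06 (edgeR adjusted p = 0.000481), and -0.77 ± 0.05 without YAPi replicate 3. In replicate 3, OBSL1 stood at 109% of the mean of YAPi replicates 1 and 2, where the other members stood at 30.3 to 65.2%. In hg19, the OBSL1 transcript listed for the counts spans chromosome 2, 220419872 to 220436268, and the one listed for the FPKM starts at 220426438.

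The known partners of OBSL1 in the 3M complex, a ubiquitin ligase assembly, were also lower. CCDC8, a further subunit, measured 91.2, 93.4 and 104 CPM in YAPi, against 170.1 and 176 CPM in GiWi (log2 fold change -0.85 ± 0.07, edgeR adjusted p = 0.000484). CUL7, the cullin scaffold, measured 77.8, 74.6 and 84.9 CPM in YAPi, against 115 and 120.1 CPM in GiWi (log2 fold change -0.57 ± 0.07, edgeR adjusted p = 0.00157). FBXW8, the F-box protein bound to CUL7, averaged 41.0 ± 4.63 CPM in YAPi and 52.8 ± 3.60 CPM in GiWi (log2 fold change -0.37 ± 0.11, edgeR adjusted p = 0.0291). All 3 partners fell, also without YAPi replicate 3 (log2 fold changes of -0.91 for CCDC8, -0.62 for CUL7 and -0.46 for FBXW8). Their summed level stood at 114% in YAPi replicate 3 relative to replicates 1 and 2. The summed fibroblast markers stood at 117%, so this is not particular to OBSL1 and its partners. That sum is mostly COL1A1 and COL3A1, and LUM and DCN were lower in replicate 3. The summed endothelial markers stood at 123% through KDR (314 CPM, against 226 and 239 CPM), while PECAM1, CDH5 and TIE1 were lower there. The median log2 fold change of the 3 partners was -0.61 without GiWi replicate 1 and -0.54 without GiWi replicate 2.

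OBSL1 also differed in the transcript that its reads covered. The FPKM are listed for NM_001173408, which ends early after 9 exons and encodes 1025 residues, and the counts for NM_001173431, with 14 exons and 1543 residues. The count on the shorter transcript was 79.0, 78.3 and 78.1% of the count on the longer one in YAPi, against 70.8 and 71.1% in GiWi. Every YAPi library lay above both GiWi libraries, with means of 78.5 ± 0.448% in YAPi and 70.9 ± 0.226% in GiWi, 7.53 points apart (exact two-sided permutation p = 0.1, the smallest possible). The shorter transcript has a last exon of its own of 287 bases, so the value is a ratio of counts and not a share of molecules. Among 4624 genes with a shorter FPKM transcript and at least 200 counts in every library, the groups did not overlap in 29.4%, and 58 differed by at least as many points as OBSL1. The measure cannot tell use of the shorter form from uneven coverage along the gene.

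MYBPC3 was one of the most abundant members per length and did not pass the test. It measured 122, 116 and 41.1 CPM in YAPi, against 120.1 and 118 CPM in GiWi. YAPi replicates 1 and 2 lay around the GiWi values and replicate 3 far below. Its log2 fold change was -0.35 ± 0.44 (edgeR adjusted p = 0.526), and 0.00 ± 0.05 without YAPi replicate 3 (edgeR adjusted p = 0.964). Set against the heavy chains it binds, MYBPC3 amounted to 14.2, 12.8 and 11.0% of the summed FPKM of MYH6 and MYH7 in YAPi, against 7.47 and 7.38% in GiWi (exact two-sided permutation p = 0.1). The ratio was higher in every YAPi library. Of its denominator, MYH6, the alpha heavy chain, fell, at 101 ± 45.4 CPM in YAPi and 1867 ± 16.3 CPM in GiWi (log2 fold change -4.20 ± 0.43, edgeR adjusted p = 0.000774). MYH7, the beta heavy chain, rose, at 925 ± 379 CPM in YAPi and 404 ± 9.54 CPM in GiWi (log2 fold change 1.19 ± 0.38, edgeR adjusted p = 0.0405), or by 1.501 on the log2 scale without YAPi replicate 3. MYBPC3 spans chromosome 11, 47352957 to 47374253, in hg19.

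TRIM55 fell while its paralog TRIM63 did not pass the test. TRIM55 measured 13.8, 14.2 and 6.11 CPM in YAPi, against 52.6 and 48.5 CPM in GiWi. No YAPi library reached the GiWi libraries, with a log2 fold change of -2.15 ± 0.34 (edgeR adjusted p = 0.00346), or -1.86 ± 0.06 without YAPi replicate 3. TRIM63 measured 31.2, 31.8 and 12.4 CPM in YAPi, against 31.1 and 27.2 CPM in GiWi. YAPi replicates 1 and 2 lay slightly above the GiWi libraries and replicate 3 below them, with a log2 fold change of -0.21 ± 0.40 (edgeR adjusted p = 0.671), or 0.11 ± 0.07 without YAPi replicate 3 (edgeR adjusted p = 0.125). TRIM63 made up 76.1, 76.2 and 74.2% of the summed FPKM of the pair in YAPi, against 45.5 and 44.2% in GiWi. The means were 75.5 ± 1.16% in YAPi and 44.8 ± 0.926% in GiWi, 30.7 points apart (exact two-sided permutation p = 0.1). TRIM63 was the more abundant of the pair per length in every YAPi library and the less abundant in both GiWi libraries. TRIM55 lies at chromosome 8, 67039278 to 67087718, and TRIM63 at chromosome 1, 26377796 to 26394125, in hg19.

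CMYA5 did not pass the test. It measured 28.6, 27.1 and 11.0 CPM in YAPi, against 26.9 and 25.2 CPM in GiWi. Outside replicate 3 every value lay within a few CPM of the others. Its log2 fold change was -0.22 ± 0.39 (edgeR adjusted p = 0.65), and 0.10 ± 0.06 without YAPi replicate 3 (edgeR adjusted p = 0.142). CMYA5 spans chromosome 5, 78985659 to 79096049, in hg19.

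**Figure D4:**
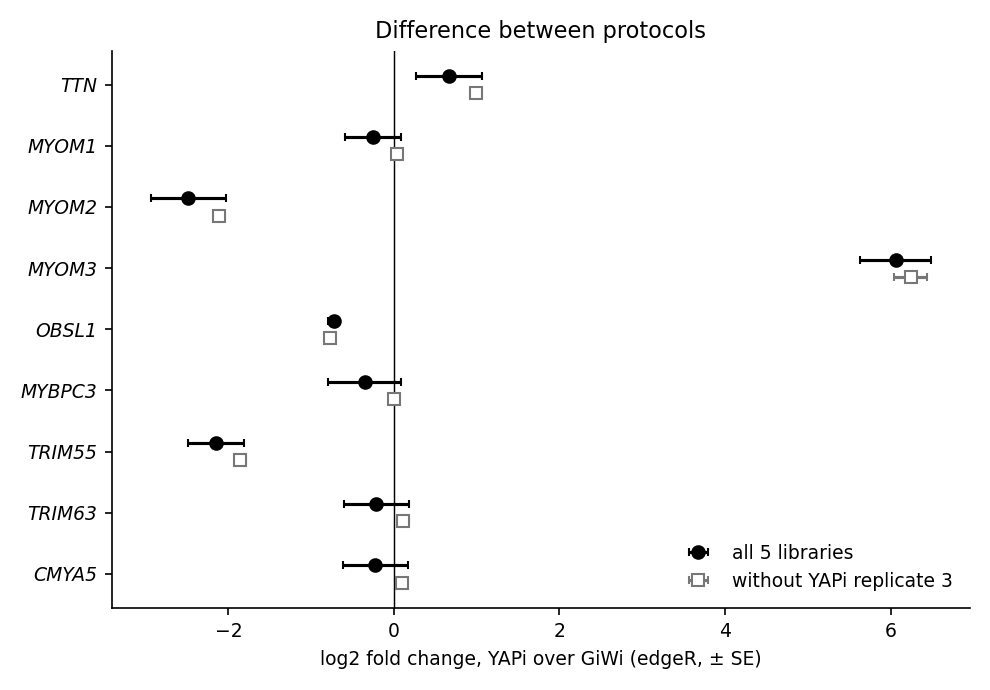
Log2 fold change of YAPi over GiWi (horizontal axis, edgeR, bars are SE) for the 9 genes, with all libraries (black) and without YAPi replicate 3 (open squares). MYOM3 lies near 6, MYOM2, TRIM55 and OBSL1 lie below 0 in both fits, and TTN moves to 0.99 with a much narrower bar when replicate 3 is left out.

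Per length, the order of the genes differed at several places. In YAPi the mean FPKM ran from MYBPC3 (17.6 ± 8.59) and OBSL1 (16.2 ± 0.79) over TRIM63 (11.3 ± 4.99) and MYOM1 (10.6 ± 4.07) to TRIM55 (3.60 ± 1.45) and TTN (2.496 ± 1.10). CMYA5 (1.37 ± 0.603), MYOM3 (1.24 ± 0.297) and MYOM2 (1.20 ± 0.629) came last. In GiWi it ran from OBSL1 (26.8 ± 0.112) and MYBPC3 (24.9 ± 0.891) over TRIM55 (17.8 ± 1.42), TRIM63 (14.5 ± 1.70) and MYOM1 (13.9 ± 0.151) to MYOM2 (7.41 ± 0.0163), with CMYA5 (1.76 ± 0.125), TTN (1.74 ± 0.163) and MYOM3 (0.0200 ± 0.0141) last. Compared inside each YAPi library, OBSL1 lay above TRIM63, MYOM1 above TRIM55, TRIM55 above TTN and TTN above CMYA5 in every library. The other neighbours in this order changed places between YAPi libraries. Between the GiWi libraries, TRIM63 with MYOM1 and CMYA5 with TTN changed places and no other neighbours did. For TTN, MYOM1, OBSL1 and TRIM55 the FPKM refer to another transcript than the counts.

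To set the members against other sarcomere genes of the same library, each was expressed as a log2 difference, inside each library, from the mean of TNNT2, TNNC1, ACTN2 and ACTC1, thin filament and Z-disc genes of cardiomyocytes. None of these 4 passed the edgeR test with all libraries (without YAPi replicate 3, 1 rose and 2 fell). Even so, TNNT2, ACTN2 and ACTC1 lay below both GiWi libraries in every YAPi library. The median log2 fold change of the 4 was -0.40, and a lower reference raises the ratios in YAPi. The 4 genes summed to 2528, 2586 and 1242 CPM in YAPi and 2710 and 2641 CPM in GiWi. Relative to them TTN was higher in every YAPi library, at -0.56, -0.78 and -0.86, against -1.62 and -1.71 in GiWi, a difference of 0.93. MYOM3 differed by 4.27, and MYOM2 and TRIM55 by -2.20 and -1.81. For these 4 members the groups did not overlap, as in 48.8% of all tested genes; higher in YAPi were 44.1% and lower 4.77%. TRIM55 lay at -5.19, -5.19 and -5.21 in YAPi, so its ratio to the reference genes was nearly the same in replicate 3 as in replicates 1 and 2, against -3.35 and -3.41 in GiWi. MYOM1, TRIM63 and CMYA5 differed between groups by 0.04, 0.05 and 0.04, and MYBPC3 by -0.13, with overlapping groups. OBSL1 was at -2.51, -2.58 and -1.30 in YAPi, against -1.84 and -1.73 in GiWi, so replicate 3 lay on the other side of the GiWi libraries. Over the 9 members, exact two-sided permutation p-values ran from 0.1 to 0.8 and the smallest after Benjamini-Hochberg adjustment was 0.225, so none passed, as 5 libraries cannot give a smaller p than 0.1. The overlap depended on the reference: with TNNT2 alone or the 14 cardiomyocyte markers 7 members did not overlap, 5 higher and 2 lower, against 59.3% of all tested genes with TNNT2 and 54.4% with the markers. Without YAPi replicate 3 it was 7 of 9, 4 higher and 3 lower, against 85.4% of all tested genes.

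**Figure D5:**
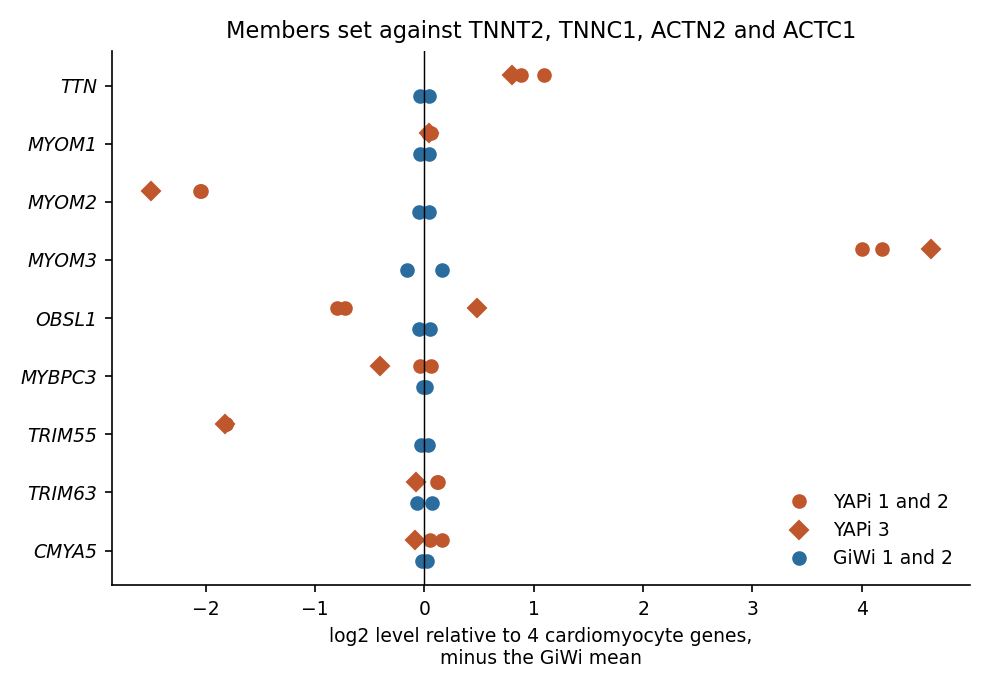
Log2 level of each gene relative to the mean of TNNT2, TNNC1, ACTN2 and ACTC1 in the same library, minus the GiWi mean (horizontal axis); orange points are YAPi libraries, with a diamond for replicate 3, and blue points GiWi libraries. MYOM1, MYBPC3, TRIM63 and CMYA5 lie near 0, TTN and MYOM3 to the right, MYOM2 and TRIM55 to the left, and OBSL1 has replicate 3 on the opposite side from replicates 1 and 2.

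Other genes of the thick filament differed in both directions. Of 12 listed, 11 were tested, 2 rose, 3 fell and 6 did not pass, with a median log2 fold change of -0.52. MYL2, the ventricular regulatory light chain, rose by 4.89 ± 0.51 on the log2 scale, and MYBPHL, an atrial protein related to myosin-binding protein C, fell by 4.63 ± 0.33. MYBPHL measured 0.404, 0.165 and 0.223 CPM in YAPi, against 6.38 and 6.92 CPM in GiWi (edgeR adjusted p = 0.000246). Without YAPi replicate 3, 3 rose and 7 fell, with log2 fold changes of 5.21 for MYL2 and -4.50 for MYBPHL. Of all tested genes, 57.1% passed with all libraries and 74.9% without YAPi replicate 3. Under library size scaling 1 of the listed genes rose and 3 fell, so the count that rose depended on the scaling. UNC45B and SMYD1, which encode proteins that help fold myosin, did not pass with all libraries, with log2 fold changes of -0.68 ± 0.29 for UNC45B and 0.44 ± 0.34 for SMYD1. Both passed without YAPi replicate 3, at -0.42 for UNC45B (edgeR adjusted p = 2.48e-07) and 0.72 for SMYD1 (edgeR adjusted p = 1.47e-11).

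Of 25 other partners of titin and the M band, 24 were tested, 5 rose, 7 fell and 12 did not pass, with a median log2 fold change of 0.02. CAPN3, a protease that binds titin, measured 4.21, 3.76 and 2.08 CPM in YAPi, against 13.6 and 12.6 CPM in GiWi (log2 fold change -1.96 ± 0.28, edgeR adjusted p = 0.0025). CKM, the muscle creatine kinase that docks at the M band, measured 41.1, 40.3 and 11.8 CPM in YAPi, against 94.2 and 99.4 CPM in GiWi (log2 fold change -1.64 ± 0.50, edgeR adjusted p = 0.034). TCAP, the cap of titin at the Z disc, averaged 14.8 ± 7.12 CPM in YAPi and 41.2 ± 1.05 CPM in GiWi (log2 fold change -1.47 ± 0.42, edgeR adjusted p = 0.0281). All 3 were lower in each YAPi library than in either GiWi library. SPEG, which encodes a striated muscle kinase, fell by 0.56 ± 0.11 on the log2 scale. Of the 5 that rose, the largest log2 fold changes were those of XIRP2 (2.35 ± 0.54), SQSTM1 (0.94 ± 0.11) and ANKRD1 (0.84 ± 0.25). XIRP2 stayed under 5 CPM in every library. With YAPi replicate 3 left out, the log2 fold changes were -1.71 for CAPN3, -1.25 for CKM, -1.13 for TCAP and -0.46 for SPEG, and all 4 passed. The median log2 fold change of the partners was 0.06 without GiWi replicate 1 and -0.02 without GiWi replicate 2. Without YAPi replicate 3, 21 partners passed (13 higher and 8 lower), against 74.9% of all genes tested in that fit. Under library size scaling the partners that passed were 2 higher and 7 lower.

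Of 10 other muscle ubiquitin ligases and their regulators, 9 were tested, 2 rose, 4 fell and 3 did not pass, with a median log2 fold change of -0.39. GADD45A, a stress gene induced in muscle atrophy, measured 49.9, 49.6 and 38.4 CPM in YAPi, against 20.2 and 21.7 CPM in GiWi (log2 fold change 1.13 ± 0.13, edgeR adjusted p = 0.0013). FOXO1, a transcription factor that activates TRIM63 in atrophy, measured 16.9, 16.0 and 22.7 CPM in YAPi, against 35.0 and 33.9 CPM in GiWi (log2 fold change -0.90 ± 0.15). FBXO32, the atrophy ligase atrogin, averaged 13.7 ± 1.92 CPM in YAPi and 24.3 ± 0.364 CPM in GiWi (log2 fold change -0.83 ± 0.12). FOXO1 and FBXO32 passed while TRIM63 did not. The median log2 fold change of this list was -0.26 without GiWi replicate 1 and -0.51 without GiWi replicate 2. Without YAPi replicate 3, 8 passed (3 higher and 5 lower), against 74.9% of all genes tested in that fit. In that last fit the log2 fold changes were 1.25 for GADD45A, -1.06 for FOXO1 and -0.72 for FBXO32.

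Markers of other cells moved with the groups. The 6 eye field markers, all higher in YAPi, summed to 68.4 to 90.3 CPM there and 0.0746 to 0.135 CPM in GiWi. The 7 gut epithelial markers, all higher, summed to 423 to 624 CPM in YAPi and 117 to 124 CPM in GiWi. Most of the GiWi sum was CDH1, at 105 and 113 CPM, where EPCAM measured 3.34 CPM in each library. The 8 macrophage markers, all higher, summed to 133 to 353 CPM in YAPi and 0.348 to 0.355 CPM in GiWi. The fibroblast list (5 rose, 3 fell) summed to 84549 to 100203 CPM in YAPi and 49512 to 49793 CPM in GiWi. The smooth muscle list summed to 1996 to 2331 CPM in YAPi and 1554 to 1647 CPM in GiWi, 2 rose and 2 fell. The endothelial list summed to 325 to 411 CPM in YAPi and 278 to 285 CPM in GiWi, 3 rose and 2 fell. Most of that sum was KDR (260 ± 47.3 CPM in YAPi, 190 ± 4.66 CPM in GiWi) and TEK (96.8 ± 2.37 and 86.6 ± 0.440 CPM). PECAM1, CDH5, VWF and TIE1 reached at most 3.59 CPM in any library. Of these, PECAM1 rose, CDH5 and TIE1 fell and VWF did not pass. Of the 14 cardiomyocyte markers 0 rose and 3 fell. The median log2 fold change of the cardiomyocyte markers was -0.47 without GiWi replicate 1 and -0.48 without GiWi replicate 2. In the same 2 fits it was -0.06 and 0.06 for the smooth muscle list and -0.10 and 0.03 for the endothelial list. Without YAPi replicate 3, 3 cardiomyocyte markers rose and 10 fell, where 74.9% of all genes tested in that fit passed. POU5F1 and NANOG, genes of undifferentiated stem cells, together reached at most 0.0495 CPM in YAPi and 0.0193 CPM in GiWi. Their part in the results of the members was not tested.

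Skeletal muscle also expresses these genes, and its defining regulators were near 0. MYF5 had no counts in any library, MYOD1 at most 0.0773 CPM, PAX7 at most 0.0850 CPM and MYOG at most 0.616 CPM. The 20 skeletal markers, of which 13 were tested, 2 rose and 3 fell, summed to 7.73 to 13.0 CPM in YAPi and 9.33 to 9.55 CPM in GiWi. Without YAPi replicate 3, 4 of them rose and 6 fell, where 74.9% of all genes tested in that fit passed. The median log2 fold change of those tested was -0.17 without GiWi replicate 1 and 0.006 without GiWi replicate 2. TNNT3, fast skeletal troponin T, made up 7.96 CPM of the highest sum, that of YAPi replicate 3. With all libraries, the 2 that rose were MYL1 (1.09 ± 0.0331 CPM in YAPi, 0.114 ± 0.00282 CPM in GiWi) and CHRNA1 (0.674 ± 0.225 and 0.0187 ± 0.0264 CPM). The 3 that fell were CHRND (0.298 ± 0.0469 CPM in YAPi, 2.13 ± 0.268 CPM in GiWi), MYLPF (0.471 ± 0.0421 and 0.862 ± 0.180 CPM) and CHRNG (0.0213 ± 0.0368 and 0.437 ± 0.0377 CPM).

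In YAPi replicate 3, MYOM3 stood at 65.2% of the mean of replicates 1 and 2. OBSL1 stood at 109% and the other members at 30.3 to 45.7%. The 4 cardiomyocyte reference genes summed to 48.6% there and the macrophage markers to 38.0%. The eye field markers summed to 76.8% and the gut epithelial markers to 68.9%. Among the gut markers, CDH1 was higher in replicate 3 (213 CPM, against 193 and 188 CPM). All other gut markers were lower there, such as EPCAM (111 CPM, against 211 and 205 CPM). The genes closest to the profile of MYOM3 over the 5 libraries, among 11846 with a mean of at least 5 CPM and a name not starting with LOC or LINC, were RORB (distance 0.12), PMEL (0.17), GPX2 (0.24) and MMP9 (0.27), by the Euclidean distance of centred log2 CPM. RORB encodes a nuclear receptor of retina and brain, PMEL a protein of pigment granules and GPX2 a glutathione peroxidase of gut epithelium. The closest to TTN were FPGT-TNNI3K (0.17), SLC5A12 (0.21), TMTC1 (0.23) and TNNI3K (0.25). TNNI3K encodes a cardiac kinase and overlaps the read-through gene FPGT-TNNI3K, so these genes may share reads. A small distance over 5 libraries means a similar difference between the groups and does not show expression in the same cells. Which cells the MYOM3 transcripts came from was not tested.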

How the data were processed

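Polyadenylated RNA of 5 H1 libraries was prepared with a strand-keeping kit, per the labels. Tools named in the submitters' processing notes, without their roles, are edgeR 3.16.1, HOMER, STAR 2.5.1 and FastQC 0.11.5; the build is hg19. The authors deposited exon counts per gene, treated as estimated counts because 34.6% of values end in 0.5, and a table of FPKM. The counts were rounded before testing. A total of 3 emptied rows was not used.

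The members and lists were chosen with earlier results of these data known. Groups were tested by quasi-likelihood in edgeR 4.0.16 (R 4.3.3) with TMM factors, filterByExpr (minimum count 10, total 15) and Benjamini-Hochberg adjustment over all genes at 0.05. Ratios inside a library used a pseudocount of 0.5 CPM on the log2 scale or FPKM, with exact permutation tests over libraries. Library totals behind the FPKM were the median over genes with the same transcript in both tables and at least 1000 counts, and came to 51355942 to 60420311 reads. For single genes these estimates spread by at most 0.0917%, so the transcript comparisons, which were chosen after the data were seen, are limited by counting. Chi-square per degree of freedom was 2.13 between YAPi replicates 1 and 2, and 5.90 between the GiWi replicates. For YAPi replicate 3 it was 53.6 with replicate 1 and 48.4 with replicate 2. No library is thus an exact copy of another, but the measure cannot tell separate cultures from repeat preparations of the same culture. Named genes were all members and the 4 closest profiles to MYOM3 and TTN. Also named were up to 3 passing genes of each related list with the largest change and a mean of at least 5 CPM. MYH7, SPEG, XIRP2, SQSTM1, ANKRD1, UNC45B, SMYD1, TNNT3 and single fibroblast, endothelial, gut epithelial and skeletal muscle markers were named after their values were seen. Alternatives were RLE factors, library size alone, other filters, robust edgeR, DESeq2 1.42.0, limma 3.58.1 (voom with sample weights, and, after adding 1 or 0.1, on the log2 of FPKM), a replicate block, and fits lacking 1 library. The edgeR step was tested on simulated data. Figures used matplotlib 3.10.9.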

Additional observations from a re-analysis of the deposited data

How the results depend on the processing

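MYOM3, MYOM2, TRIM55 and OBSL1 kept their direction and stayed past the threshold in all 15 alternatives. MYOM3 fitted 1.13 on log2(FPKM + 1), where the pseudocount compresses low values. Of all genes, 5909 to 13115 changed with single libraries left out, against 10065; among the members it was 4 to 5. With single libraries left out, log2 fold changes ran over -0.44 to 0.039 for MYOM1, -0.41 to 0.11 for TRIM63, -0.59 to 0.0025 for MYBPC3 and -0.44 to 0.10 for CMYA5, each above 0 without YAPi replicate 3 alone and none passing. They also turned with the replicate block (MYOM1 0.037, TRIM63 0.11, MYBPC3 0.0008, CMYA5 0.10), which leaves replicate 3 out of the contrast. With limma-voom MYOM1 (0.0033), TRIM63 (0.073) and CMYA5 (0.054) turned, and the cause there was not tested. The replicate block, in which replicate 3 drops out of the contrast, gave 13576 changed genes and 5 members, TTN (0.98) the added one; same-numbered libraries deviated together at r = 0.065 over only 2 shared numbers, so numbers were not taken as pairs. TRIM63 shares differed by 31.9 points in CPM, against 30.7 in FPKM, and by 30.0 to 31.3 with libraries left out. MYOM3 shares differed by 8.75 to 10.9 points with libraries left out. The members apart from the cardiomyocyte reference numbered 7 with TNNT2 alone, 7 with the marker list and 4 to 7 with libraries left out, against 4; the share of all tested genes was 59.3%, 54.4% and 50.6 to 85.4%, against 48.8%. Library size alone and FPKM put 35.8 and 37.6 to 39.5% of all calls higher, against 52.9%, and library size alone moved the median of all genes to -0.18. MYOM3 in GiWi rests on 14 counts, and the exact permutation tests over 5 libraries cannot go below 0.1.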
